A study of Mus musculus with 4 samples.

Results

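Polyamine synthesis and the hypusination of the translation factor eIF5A were followed through 10 genes in primary mouse T-helper 17 (Th17) cells, the CD4 T cells that make interleukin-17. The genes are Odc1, Srm, Sms, Amd1, Oaz1, Azin1, Sat1, Dhps, Dohh and Eif5a. They were taken by symbol from the 50600 genes listed in the count tables, and all 10 were found. The 4 RNA-seq libraries, biological replicates 1 to 4, form a single group with nothing to contrast it with, so genes are compared within a library and replicates with each other. The cells were of strain C57BL/6NJ and, per the labels, came through a CD4 T-cell differentiation protocol. Neither a treatment nor a genotype beyond the strain is given, the age is given as unknown and the sex as not collected. The file headers carry a tag of 16 hr that the labels do not explain.

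Polyamines are small positively charged molecules that bind nucleic acids. Ornithine decarboxylase makes putrescine from ornithine, and spermidine synthase and then spermine synthase each add an aminopropyl group taken from decarboxylated S-adenosylmethionine. Spermidine also gives up part of itself to a single lysine of eIF5A, where it becomes hypusine, the residue with which eIF5A helps ribosomes through difficult stretches of coding sequence. In T cells the pathway is switched on with activation and is known to take part in the choice between helper fates.

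The libraries held 24696730 to 37025016 fragments, and the least abundant value among the 10 genes was 1103 fragments. All 8 Th17 markers (among them Il17a, Il17f, Ccr6 and Batf) reached 1 TPM in each of the libraries, and all 4 T-cell markers reached 100 TPM. TPM divides a gene's count by its exon length and sets the library's sum to 1000000. The summed TPM of 3 B-cell markers lay between 0.280 and 0.468, that of 4 myeloid markers between 0.0272 and 0.0745, and 3 erythroid markers had no fragment. Of 4 CD8 and NK markers, Ncr1 and Klrb1c had no fragment, and the sum, 6.00 to 8.74 TPM, was nearly all Cd8b1, with Cd8a at 0.102 ± 0.0523 TPM (SD, n = 4, as for every ± below). The labels give 1 donor identifier for all libraries, yet Xist was at 186 and 161 TPM in replicates 1 and 2 and at 0.687 and 0.721 in replicates 3 and 4, and the Y-linked Ddx3y was at 0.442 and 0.446 against 88.6 and 83.2 TPM. Separate animals or cultures are not named in the labels. The p-values of variability below therefore refer to the spread between these libraries, which may be partly technical. That spread includes any difference between replicates 1 and 2 and replicates 3 and 4. When the 4 differences of a pair of genes share a sign, the p-value of the sign-flip test used below is fixed whatever their spread. In RNA from bulk cells, fewer expressing cells and less RNA per cell cannot be told apart.

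The sequences below carry the biology that RNA level alone does not show. The first pair is the coding sequence around the lysine codon that is hypusinated, codon 50, in Eif5a and in its relative Eif5a2, with that codon in capitals. The third is the site in Oaz1 where the ribosome must slip forward by 1 base to make full-length antizyme, which it does more often when polyamines are abundant. Its capitals mark the codon before the stop, the stop codon and the next base. All were read from the GENCODE M21 transcripts on mm10 and run 5′ to 3′. The Eif5a window is spliced from chr11:69918013-69919192 (minus strand), the Eif5a2 window is spliced from chr3:28782175-28782736 (plus strand), and the Oaz1 window lies at chr10:80828274-80828318 (plus strand).
Eif5a: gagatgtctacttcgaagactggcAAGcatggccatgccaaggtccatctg
Eif5a2: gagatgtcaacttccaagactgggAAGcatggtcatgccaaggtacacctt
Oaz1: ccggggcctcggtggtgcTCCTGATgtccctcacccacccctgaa

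The Eif5a and Eif5a2 windows are identical at 44 of 51 bases and code for the same amino acid at 17 of 17 codons. In Oaz1 the first reading frame ends at codon 69, after 68 codons, and the shifted frame runs on for 159 codons in the annotated transcript.

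All 10 genes were detected well above the floor in each library, and their levels spanned from 44.4 ± 1.06 TPM for Sms to 4015 ± 115 TPM for Eif5a. At 100 TPM or more in every library were 6 of the 10, where 17.4% of the 11170 genes at 1 TPM or more in every library reached that level. The median of the 10 mean levels was 169 TPM, and that of the 11170 genes 26.0 TPM. In order of mean level the genes were Eif5a, Odc1, Srm, Oaz1, Azin1, Amd1, Dhps, Dohh, Sat1 and Sms. The 4 values of each gene did not overlap those of the next in this order, for any of the 9 neighbouring pairs. The places of Oaz1, Azin1, Amd1, Dhps and Dohh depend on the length taken for each gene, as described with them below.

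**Figure D1:**
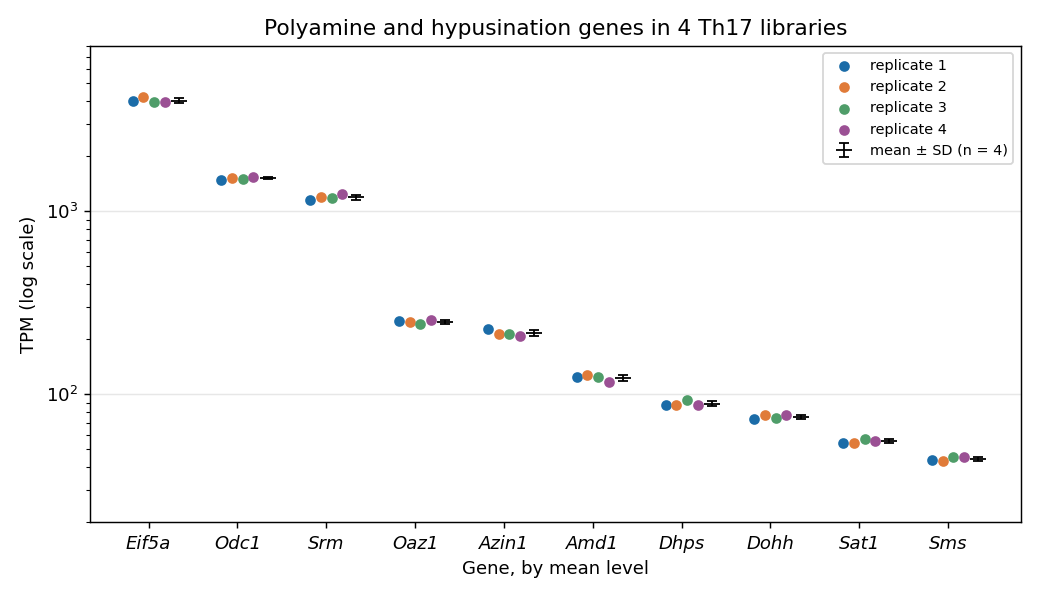
TPM (log scale) of the 10 genes in each of the 4 libraries, with the mean and SD at the right of each gene. Eif5a, Odc1 and Srm stand above 1000 TPM in every library, and the 4 replicates of each gene lie close together compared with the distances between most genes.

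Odc1 encodes ornithine decarboxylase, the enzyme that commits ornithine to polyamines and a classic target of Myc. Odc1 (ENSMUSG00000011179.7, chromosome 12, 17544873 to 17551502, plus strand) was at 1487, 1525, 1505 and 1530 TPM in replicates 1 to 4, a mean of 1512 ± 19.8. The libraries differed by little, with a coefficient of variation (CV, the SD as a percentage of the mean) of 1.31%. It ranked 72nd of the 11170 genes detected. Of 9760 other protein-coding genes, those most alike in level over the 4 libraries were Tpt1, at 1515 ± 46.6 TPM, Pa2g4, at 1489 ± 27.2, and Eif4a1, at 1533 ± 42.8, with root mean square differences of log2(TPM + 1) of 0.024, 0.025 and 0.035. In the annotation, 24.3% of the 50-base words of Odc1 transcripts also occur in other genes, among them the processed pseudogenes Gm7993 and Gm17709. With only unshared sequence taken as length, and all counted fragments supposed to lie there, Odc1 would be at 1997 ± 26.1 TPM. For this and the like values below, the unshared share of transcript words was applied to the exon length of the files.

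Antizyme, encoded by Oaz1, binds ornithine decarboxylase and carries it to the proteasome, and the antizyme inhibitor encoded by Azin1, a decarboxylase look-alike without activity, holds antizyme back. Oaz1 (ENSMUSG00000035242.15, chromosome 10, 80826656 to 80829290, plus strand) was at 253, 247, 242 and 254 TPM, a mean of 249 ± 5.53. Azin1 (ENSMUSG00000037458.14, chromosome 15, 38487430 to 38519266, minus strand) was at 227, 214, 215 and 209 TPM, a mean of 216 ± 7.38. Replicate 1 was the highest for Azin1, and replicates 1 and 4 were the highest for Oaz1.

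Odc1 exceeded Oaz1 by 5.89 to 6.21 times and Azin1 by 6.56 to 7.31 times in the 4 libraries. On the log2(TPM + 1) scale, Odc1 minus Oaz1 was 2.60 ± 0.04 and Odc1 minus Azin1 was 2.80 ± 0.07, each with Odc1 higher in 4 of 4 libraries. For these and for all 12 pairs compared, the exact two-sided sign-flip p was 0.13, and 0.13 after Benjamini-Hochberg adjustment over the 12. With 4 libraries no smaller p can be reached, so no pair could pass 0.05 and the direction and its spread are what the data give.

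Azin1 minus Oaz1 was -0.20 ± 0.05, with Oaz1 higher in 4 of 4 libraries, but the sign rests on gene length. The exon length of Oaz1 in the files, 2558 bases, includes a retained-intron transcript, and its longest protein-coding transcript is 1071 bases. With the longest protein-coding transcript as length, Oaz1 was at 429 ± 9.44 and Azin1 at 199 ± 6.78 TPM, with Oaz1 higher. Here and below, a level over a transcript changes only the length. All counted fragments are kept, including any that lie outside that transcript. Over the longest transcript of any kind the order turned, with Azin1 at 219 ± 7.47 and Oaz1 at 199 ± 4.40 TPM. Odc1 stayed above both under either length, and Odc1 minus Oaz1 was 1.55 ± 0.04 over protein-coding transcripts. Of the 50-base words of Oaz1, 20.1% also occur in its processed pseudogene Oaz1-ps.

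The other antizyme and inhibitor genes were lower. Oaz2, a second antizyme, was at 11.0, 9.67, 10.2 and 10.4 TPM, and Oaz1 minus Oaz2 was 4.47 ± 0.06, with Oaz1 at 23.0 to 25.5 times the level of Oaz2. Over the longest annotated transcript that difference was 3.82 ± 0.06, and over the longest protein-coding transcript 5.04 ± 0.06. Oaz3, an antizyme known from testis, had 1 fragment in all. Azin2, a second antizyme inhibitor, had 7 fragments over the 4 libraries and none in replicates 2 and 3. Its mean of 0.0399 TPM is below the floor of 0.102 TPM (3 fragments in the shallowest library), so no fold is given, and Azin1 was higher in 4 of 4 libraries.

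**Figure D2:**
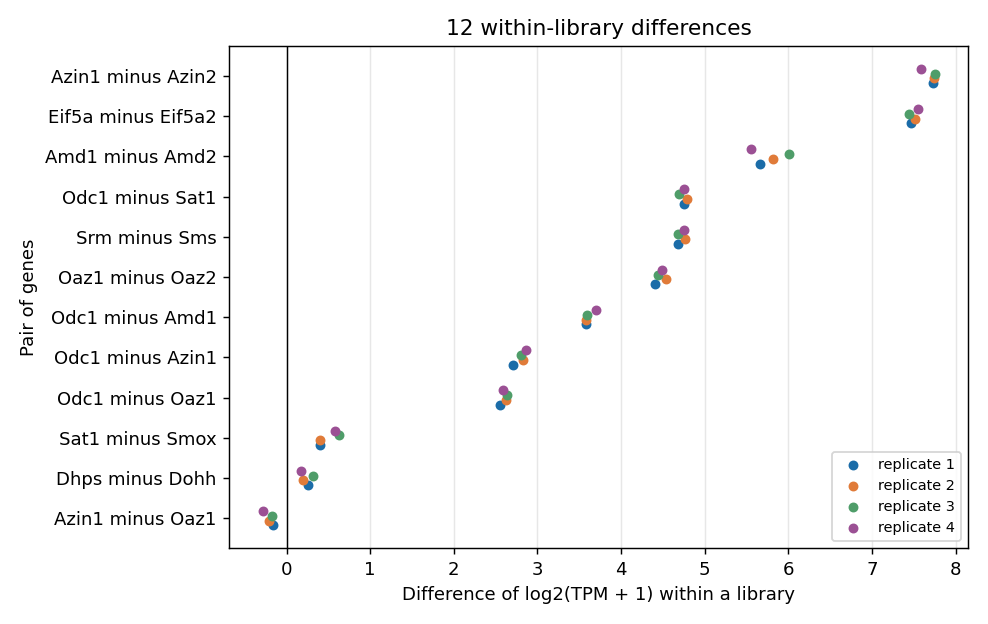
Difference of log2(TPM + 1) between the genes of each of 12 pairs, 1 point per library, with a line at 0. The 4 points of each pair lie on the same side of 0, below it for Azin1 minus Oaz1 and above it for the other 11.

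Amd1 encodes S-adenosylmethionine decarboxylase, which makes the aminopropyl donor for both synthases. Amd1 (ENSMUSG00000075232.5, chromosome 10, 40287458 to 40302186, minus strand) was at 124, 127, 124 and 116 TPM, a mean of 123 ± 4.43, lowest in replicate 4. Odc1 was 12.01 to 13.14 times higher, and Odc1 minus Amd1 was 3.61 ± 0.06. Of the 50-base words of Amd1, 78.1% also occur in other genes, and fragments with more than 1 place to align are left out by default in the counting program. Of all Amd1 words, 76.7% occur in its near-copy Amd2. How many fragments Amd1 lost in this way was not tested. With only its unshared sequence taken as length, and all counted fragments supposed to lie there, Amd1 would be at 561 ± 20.3 TPM. That is 4.57 times the level above and would place it 4th of the 10 genes, under Srm and above Oaz1. With such lengths for both genes, Odc1 minus Amd1 would be 1.83 ± 0.06. Amd2 itself was at 1.46, 1.27, 0.932 and 1.51 TPM. Of its own 50-base words, 85.7% also occur in other genes, so Amd2 may have lost fragments in the same way. Amd1 held 99.0% of the 16958 fragments assigned to either gene, and Amd1 minus Amd2 was 5.76 ± 0.20, or 6.48 with a pseudocount of 0.1.

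**Figure D3:**
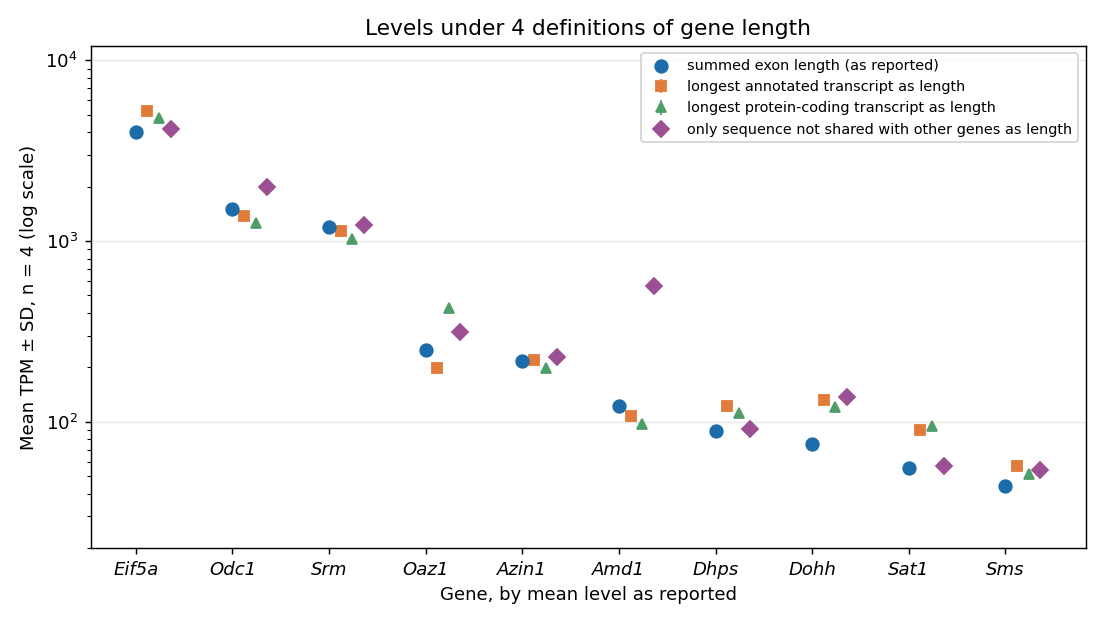
Mean TPM (log scale, error bars SD, n = 4, smaller than the symbols) of the 10 genes with the exon length of the files and with 3 other lengths. Amd1 is at 123 TPM with the length of the files and at 561 TPM when only its unshared sequence is counted as length, Oaz1 is at 429 TPM over its longest protein-coding transcript, and Eif5a, Odc1 and Srm keep the first places throughout.

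Srm and Sms encode spermidine synthase and spermine synthase, successive steps that use the same donor, and their RNAs were far apart. Srm (ENSMUSG00000006442.10, chromosome 4, 148591503 to 148594993, plus strand) was at 1150, 1203, 1186 and 1243 TPM, a mean of 1196 ± 38.3. Sms (ENSMUSG00000071708.11, chromosome X, 157443855 to 157492287, minus strand) was at 43.8, 43.3, 45.4 and 45.2 TPM, a mean of 44.4 ± 1.06. Srm was 26.1 to 27.8 times higher, and Srm minus Sms was 4.72 ± 0.05 with Srm higher in 4 of 4 libraries. With the exon length of the files, Srm was close to Odc1, which was 1.26 times higher by mean TPM. Of the words of Sms, 17.5% also occur in other genes, chiefly the pseudogene Sms-ps, and 2.01% of those of Srm do. With only unshared sequence taken as length, Sms would be at 53.8 ± 1.28 and Srm at 1220 ± 39.1 TPM, beside 1997 ± 26.1 for Odc1.

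Sat1 encodes the acetyltransferase that marks spermidine and spermine for export or oxidation. Sat1 (ENSMUSG00000025283.15, chromosome X, 155213132 to 155216449, minus strand) was at 54.3, 54.3, 57.1 and 55.7 TPM, a mean of 55.3 ± 1.37, and Odc1 minus Sat1 was 4.75 ± 0.04. Its longest protein-coding transcript, 1162 bases, is shorter than the 2774 bases of all its exons, and over it Sat1 was at 95.2 ± 2.36 TPM and Odc1 minus Sat1 was 3.71 ± 0.04. The spermine oxidase Smox was at 41.0, 40.8, 36.7 and 36.9 TPM, and Sat1 minus Smox was 0.50 ± 0.12. In CPM, which leaves length out, the difference was within its spread, at 0.02 ± 0.12 (exact sign-flip p = 0.75), and over protein-coding transcripts it was 0.99 ± 0.12. Replicates 1 and 2 were lower than 3 and 4 for Sat1 and higher for Smox. Sat1 and Sms are the only ones of the 10 genes on chromosome X. Both were a little lower in replicates 1 and 2, the libraries with Xist, than in 3 and 4. In the edgeR test of variability below, their spread was 0.273 and 0.382 times the fitted trend (unadjusted p of 0.844 and 0.767). That test takes the 4 libraries as a set and does not compare replicates 1 and 2 with 3 and 4. Some genes of other chromosomes also had replicates 1 and 2 apart from 3 and 4. Among them, Smox (chromosome 2), Eif5a (chromosome 11), Mri1 (chromosome 8) and Adi1 (chromosome 12) were higher in replicates 1 and 2. Apip (chromosome 2) was lower there, while Odc1 and Srm were not split in this way. Whether the source of the cells bears on the small differences of Sat1 and Sms was not tested.

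Eif5a, the substrate of hypusination, was the most abundant of the 10 genes. Eif5a (ENSMUSG00000078812.10, chromosome 11, 69916714 to 69921958, minus strand) was at 3996, 4183, 3937 and 3944 TPM, a mean of 4015 ± 115, highest in replicate 2. It ranked 14th of the 11170 detected genes and took between 0.276% and 0.295% of all fragments in a library. Among the genes most alike in level were the ribosomal protein gene Rpl32, at 3915 ± 96.6, and the mitochondrial mt-Cytb, at 3791 ± 228 TPM, with root mean square differences of log2(TPM + 1) of 0.055 and 0.14. Eif5a2, whose hypusine site is printed above, was at 21.6, 21.8, 21.6 and 20.1 TPM. Eif5a exceeded it by 183 to 196 times, and Eif5a minus Eif5a2 was 7.50 ± 0.05, or 8.20 over the longest annotated transcript. Eif5a2 shares no 50-base word with any other gene in the annotation, and Eif5a shares 3.77% of its words, the most with the pseudogene Eif5al3-ps.

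The hypusination enzymes were expressed at much lower RNA levels than their substrate. Dhps, deoxyhypusine synthase, moves the aminobutyl part of spermidine to the lysine of eIF5A. Dhps (ENSMUSG00000060038.14, chromosome 8, 85071757 to 85075162, plus strand) was at 87.3, 87.7, 92.9 and 87.2 TPM, a mean of 88.8 ± 2.74, with replicate 3 above the others. Dohh, deoxyhypusine hydroxylase, adds the hydroxyl group that completes hypusine. Dohh (ENSMUSG00000078440.9, chromosome 10, 81384428 to 81391560, plus strand) was at 73.1, 76.7, 74.1 and 77.5 TPM, a mean of 75.4 ± 2.08.

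Dhps minus Dohh was 0.23 ± 0.07, with Dhps higher in 4 of 4 libraries, but this order also rests on the gene model. The Dohh entry of the files runs to base 81391560, while in GENCODE M21 the gene ends earlier, and 1154 of the 3202 exon bases counted as Dohh, 36.0%, fall in the exons of the genes Gm48551 and Gm48552 instead. Neither of those is a separate entry in the files, so their fragments and those of Dohh cannot be told apart there. If every fragment lay in the 2048 bases that remain, Dohh would be at 118 ± 3.25 TPM. Over protein-coding transcripts Dohh was at 120 ± 3.33 and Dhps at 112 ± 3.46 TPM, and Dhps minus Dohh turned to -0.11. The exons of Dhps overlap those of Wdr83 on the other strand by 128 bases, and the counting used strand.

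Between replicates, none of the 10 genes was called more variable than genes of its abundance. In the edgeR quasi-likelihood fit, 0 of the 10 genes were called by the one-sided test at an adjusted p under 0.05 and 0 fell below 0.05 unadjusted, where 0.304% of the 11847 genes tested were called and 5.69% fell below 0.05 unadjusted. With limma-trend the count among the 10 was also 0. The lowest unadjusted p was 0.1254, for Eif5a, at an edgeR adjusted p of 0.974, followed by Amd1 at 0.136 and Srm at 0.195, with adjusted p of 0.986 and 0.993. Those 3 were also the ones whose spread exceeded the fitted trend, at 2.10, 2.02 and 1.69 times it. The lowest was Sat1, at 0.273 times the trend.

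The CV of TPM over the 4 libraries lay between 1.31% for Odc1 and 3.61% for Amd1. In CPM the median CV was 2.88% over the 10 genes and 5.04% over all genes tested, but the 10 are abundant genes and counting error falls with abundance. Relative to the fitted trend, which accounts for abundance, the median was 0.718 for the 10 genes and 0.804 for all tested. Counting error alone would give a CV of 0.329% for Eif5a, 0.518% for Odc1 and 2.59% for Sat1. The CV of TPM was 2.86% for Eif5a and 2.47% for Sat1, and Sat1 was the only one of the 10 whose CV lay below that of counting error.

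**Figure D4:**
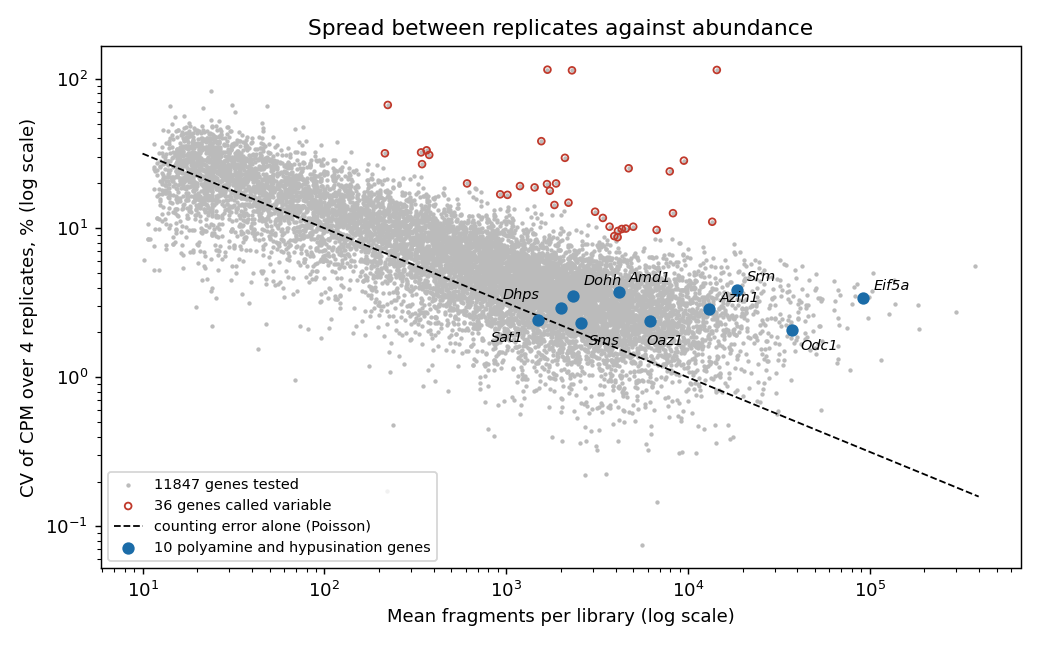
CV of CPM over the 4 replicates against mean fragments per library, both on log scales, for all 11847 genes tested (grey), the 36 called variable (red rings) and the 10 polyamine and hypusination genes (blue). The blue points lie within the cloud of genes of like abundance, most of them above the dashed line of counting error.

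Among 35 further genes of the pathway, no fragment was counted for 10, whereas 18 passed 1 TPM in each library and 6 of them 100 TPM. None of the 20 that could be tested was called variable between replicates (edgeR, adjusted p), and 0 had an unadjusted p under 0.05, beside 0.304% and 5.69% of all genes tested. Of the 11 relatives of these genes and catabolic enzymes, 5 reached 1 TPM in every library. Besides Smox, Eif5a2 and Oaz2 they were Hdac10, a deacetylase of acetylated polyamines, at 28.2 ± 0.836 TPM and Paox, which oxidises acetylated polyamines, at 4.74 ± 0.303 TPM. Amd2 missed 1 TPM in replicate 3 only.

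Ornithine supply split sharply. Oat, the aminotransferase that links ornithine to glutamate and proline, was at 153 ± 2.34 TPM, and the arginine importer Slc7a1 and the mitochondrial ornithine carrier Slc25a15 were at 110 ± 2.50 and 28.7 ± 2.08 TPM. The arginase genes Arg1 and Arg2, which make ornithine from arginine, had 0 fragments and 1 fragment over the 4 libraries. For Arg1 the floor of 3 fragments in the shallowest library corresponds to 0.184 TPM. Agmat and Otc also had no fragment. Floors cover counting error only.

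Of 9 genes tied to polyamine transport, 3 reached 1 TPM in every library. Slc3a2, the heavy chain of several amino acid exchangers, was at 241 ± 5.47 TPM. The ATPase Atp13a3, which brings polyamines into cells, was at 165, 156, 157 and 155 TPM, and its lysosomal relative Atp13a2 at 12.9 ± 0.406 TPM. Atp13a4 and Slc18b1 were among those with no fragment.

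On the methionine side, 7 of 8 genes reached 10 TPM in every library. Mat2a, which makes S-adenosylmethionine, the substrate of Amd1, was the highest, at 608, 590, 596 and 588 TPM, a mean of 596 ± 8.78, and its regulatory partner Mat2b was at 36.6 ± 0.737 TPM. The liver form Mat1a had no fragment. Each aminopropyl transfer leaves methylthioadenosine, and the 5 genes of its recycling that were on the list all reached 10 TPM in every library. Mtap, the first enzyme of that salvage, was at 171 ± 4.41, Adi1 at 102 ± 6.03, Enoph1 at 71.6 ± 1.26, Mri1 at 56.0 ± 3.21 and Apip at 32.8 ± 4.26 TPM. Apip was at 28.9 and 29.3 TPM in replicates 1 and 2 and at 35.5 and 37.3 in 3 and 4, the widest relative spread of these 7, without a call (edgeR adjusted p = 0.951).

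**Figure D5:**
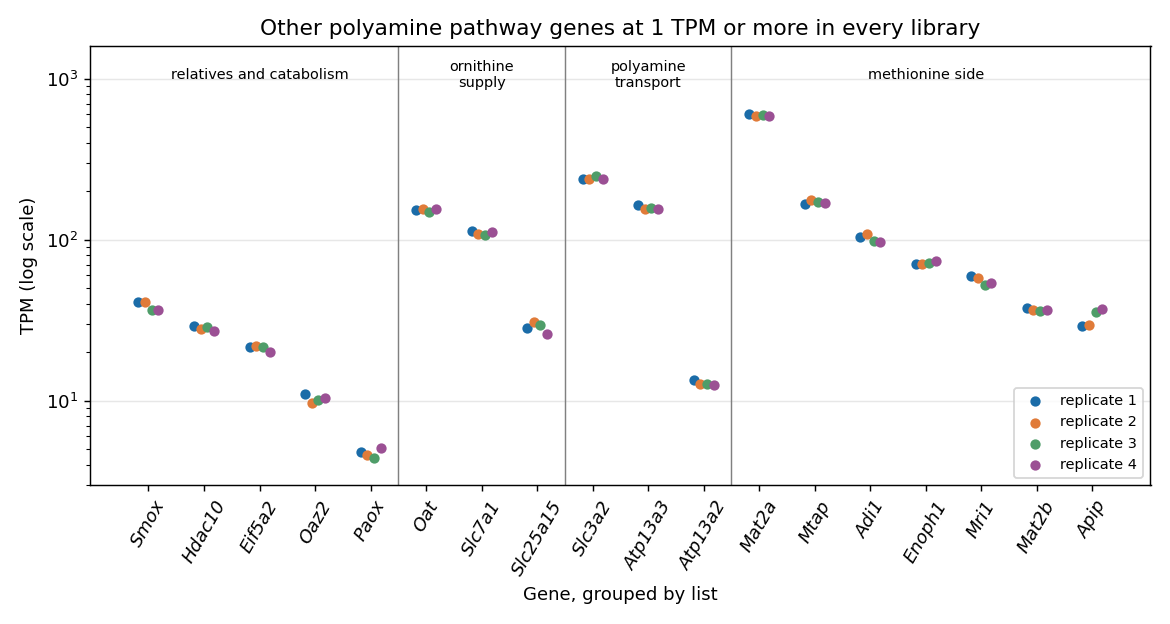
TPM (log scale) in each library of the 18 further pathway genes at 1 TPM or more in every library, grouped by list. Mat2a is the highest at 588 to 608 TPM, and Apip shows the 2 pairs of replicates apart.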

How the data were processed

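The authors deposited raw fragment counts per gene. Per the file headers, featureCounts 1.4.6-p4 assigned read pairs with both ends aligned to exons of GENCODE M13, with strand option 2. The build is mm10 per the labels. The sources used here name no version of the aligner. The headers show no option for fragments with several places to align, which the program leaves out by default. TPM was computed from the counts and the exon length in the files. Symbols, transcript lengths and sequences came from GENCODE M21 (mm10), matched without the identifier's version (50376 genes).

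All 4 libraries formed 1 group. Pairs of genes were compared on log2(TPM + 1) with an exact sign-flip test. Variability was tested over all genes with edgeR 4.0.16 in R 4.3.3 (TMM factors 0.995 to 1.003, filterByExpr, glmQLFit with an intercept, robust prior, older deviance estimate), each gene's dispersion over the trend referred to an F distribution with 24.8 prior degrees of freedom. It was tested on simulated data first. DESeq2 1.42.0 size factors and limma 3.58.1 were alternatives, and Python 3.11.15 with pandas 2.3.3 and scipy 1.17.1 did the rest. The 10 genes and the other lists were chosen with earlier results of these data known. Named were all 10 genes, pathway genes that reached 1 TPM in each library, and the 3 genes most alike in level to Odc1 and to Eif5a. Some items under these rules are not reported here. Those below 1 TPM that are named were chosen after their values were seen.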

Additional observations from a re-analysis of the deposited data

Results flagged for a closer look

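In 40 sets of 4 values, 5 held a value that lay far from the other 3, by Dixon's test of the gap over the range, where chance gives about 1 in 20. They were Dhps in replicate 3, at 92.9 TPM, Eif5a2 in replicate 4, at 20.1 TPM, Atp13a2 in replicate 1, at 13.5 TPM, and replicate 4 in the pairs Odc1 minus Amd1, at 3.70, and Azin1 minus Azin2, at 7.59 on the log2(TPM + 1) scale. In the last pair, replicate 4 holds 4 of the 7 fragments of Azin2, which is below the floor, so the pseudocount sets the size of the difference (a mean of 7.71 with 1 and 10.66 with 0.1).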

How the results depend on the processing

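Of 120 recomputed differences between genes, 6 changed sign, all in 2 of the 12 pairs. All 6 came from settings that change the gene length or leave it out. Leaving out a replicate, changing the pseudocount or dropping mitochondrial and ribosomal RNA genes could not change a sign. In every pair the 4 libraries had the same sign, and these steps keep it, so most of the 120 could not have turned. Azin1 minus Oaz1 went from -0.20 to 1.08 in CPM without length and to 0.13 over the longest annotated transcript. Dhps minus Dohh went from 0.23 to -0.22 in CPM without length and to -0.11 over the longest annotated transcript. It was -0.11 over the longest protein-coding transcript and -0.58 with the unshared share of words applied to the exon length of the files. For Dohh that share came from GENCODE M21 transcripts, while the exon length also holds 1154 bases outside the gene there. The value of -0.58 therefore does not stand for the sequence of Dohh that is truly unshared. Without length, Odc1 minus Azin1 was 1.51, Srm minus Sms 2.82 and Eif5a minus Eif5a2 6.44, with the same sign. The 45.3% of Dohh words that count as shared lie in Gm48551, at the same locus. The protein-coding length was chosen after seeing the data. It moved the median detected gene by -0.21 on the log2 scale and the longest annotated transcript by -0.11. Some length moved 4 of the 10 genes by over 1.5 times, which were Amd1, Oaz1, Sat1 and Dohh. Leaving out a replicate moved no level by more than 1.68%. The count of variable genes, 36, was 17 with a prior without robust estimation, 39 with DESeq2 size factors, 40 with limma-trend, 50 without the filter and 15 to 37 with a replicate left out, lowest without replicate 4. None of the 10 genes was called under any of these settings. Without replicate 1, Eif5a had an unadjusted p of 0.0203 (edgeR adjusted p = 0.697). No paired analysis was possible because there was 1 group.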
